A study of Homo sapiens with 7 samples.

Results

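The regions described here are the SP1 binding regions of human chromosome 19 and the piggyBac insertions mapped to the same chromosome. All 2393 peaks that the SP1 ChIP-seq list places on chromosome 19 were taken, of 27015 peaks in the whole list. All distinct insertion positions on chromosome 19 were taken as well, after lines at the same position had been merged. They numbered 1431 and 1186 in the 2 libraries made with the SP1-fused transposase, against 1300, 1427 and 1286 in the 3 libraries made with the wild-type transposase. Summed over the 5 libraries these were 6630 of 217015 positions. Neither list was filtered on the difference between the transposases, but both were chosen with earlier results of these data known.

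The cells were HCT116, a human colon carcinoma line. Calling cards record where a DNA-binding protein goes by fusing it to a transposase, which then leaves a transposon nearby. In SP1_PB the piggyBac transposase was joined to SP1, and in WT_PB it carried no partner and gave the background of the enzyme itself. All insertion libraries came from cells that had received a piggyBac transposon and were selected with G418, so insertions that left the resistance gene silent could not be recovered. The labels do not say whether libraries of a group came from separate cultures, so p-values measure the spread between these libraries, which may be technical. The peak list came from 1 ChIP-seq sample of the same line and has no replicate.

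SP1, a transcription factor with zinc fingers, recognises GC boxes, short G- and C-rich elements common in the promoters of widely expressed genes. The piggyBac transposase inserts at TTAA, so an SP1 site itself cannot be the insertion site and a recorded insertion lies beside it. Chromosome 19 is the most gene-dense human chromosome, rich in G and C, and carries large clusters of zinc-finger genes. No genome of the files' build, hg18, was used here, so no gene is assigned to a peak and no sequence is shown. As background from RefSeq promoters of build GRCh38.p14, each of 300 bases around a gene's start, GGGCGG on either strand was present in 61.8% of 1917 promoters on chromosome 19 and in 44.0% of promoters on other chromosomes. TTAA, which reads the same on both strands, was present in 32.9% of the chromosome 19 promoters and in 46.8% of the others.

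The libraries held 18856 and 14467 distinct positions in SP1_PB, against 58850, 67423 and 57419 in WT_PB, so SP1_PB values carry the larger counting error. The RNA library of the line had 79.5 RPKM (reads per kilobase of transcript, scaled to library size) for EPCAM and 378 RPKM for KRT8, both epithelial, while the blood markers PTPRC and CD3E were listed at 0. Of the other markers looked at for further cell types, COL1A1 (mesenchymal) had 14.5 RPKM, VIM (mesenchymal) 0.984, GFAP (glia) 0.936 and ALB (liver) 0.191. Of the intestinal markers CDX2 had 9.19 RPKM, but VIL1 and CDX1 had only 0.0313 and 0.0242 RPKM. SP1 itself had 48.0 RPKM.

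The chromosome 19 peaks were ordinary in size and crowded in position. They made up 8.86% of all peaks, had a median width of 832 bp against 823 bp on other chromosomes, and had a median score of 395 against 384, the score being the peak caller's own value in the authors' list. The median gap between neighbouring peaks was 6.53 kb on chromosome 19 and 19.5 kb on the other chromosomes. Gaps under 5 kb made up 44.1% of gaps on chromosome 19 and 26.6% elsewhere. The peaks covered 2.32 Mb. They lay on either side of a stretch of 8.00 Mb with no peak and no position in any library, chr19:24420579-32424127 in hg18. Before this stretch there were 1283 peaks, 52.6 per Mb, and after it 1110 peaks, 35.4 per Mb.

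Chromosome 19 took a larger share of insertions with SP1 on the transposase. It held 7.59% (95% Wilson interval 7.22 to 7.98) and 8.20% (7.76 to 8.66) of positions in the SP1_PB libraries, against 2.21% (2.09 to 2.33), 2.12% (2.01 to 2.23) and 2.24% (2.12 to 2.36) in the WT_PB libraries. The groups did not overlap. These intervals cover counting error only. The mean share was 7.89% ± 0.431 (SD, n = 2) in SP1_PB and 2.19% ± 0.0641 (SD, n = 3) in WT_PB. In edgeR's quasi-likelihood test over the 24 chromosomes, which takes each library's total number of positions as its denominator, the ratio was 3.60-fold, a log2 value of 1.85 ± 0.0431 (SE) with an adjusted p of 1.63e-07. Higher calls were made for 7 chromosomes (29.2% of those tested), and chromosome 19 had the largest ratio. The exact two-sided permutation p was 0.1, below which 2 libraries against 3 cannot go. The ratio was 3.95-fold on the side before the empty stretch and 3.36-fold after it.

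**Figure D1:**
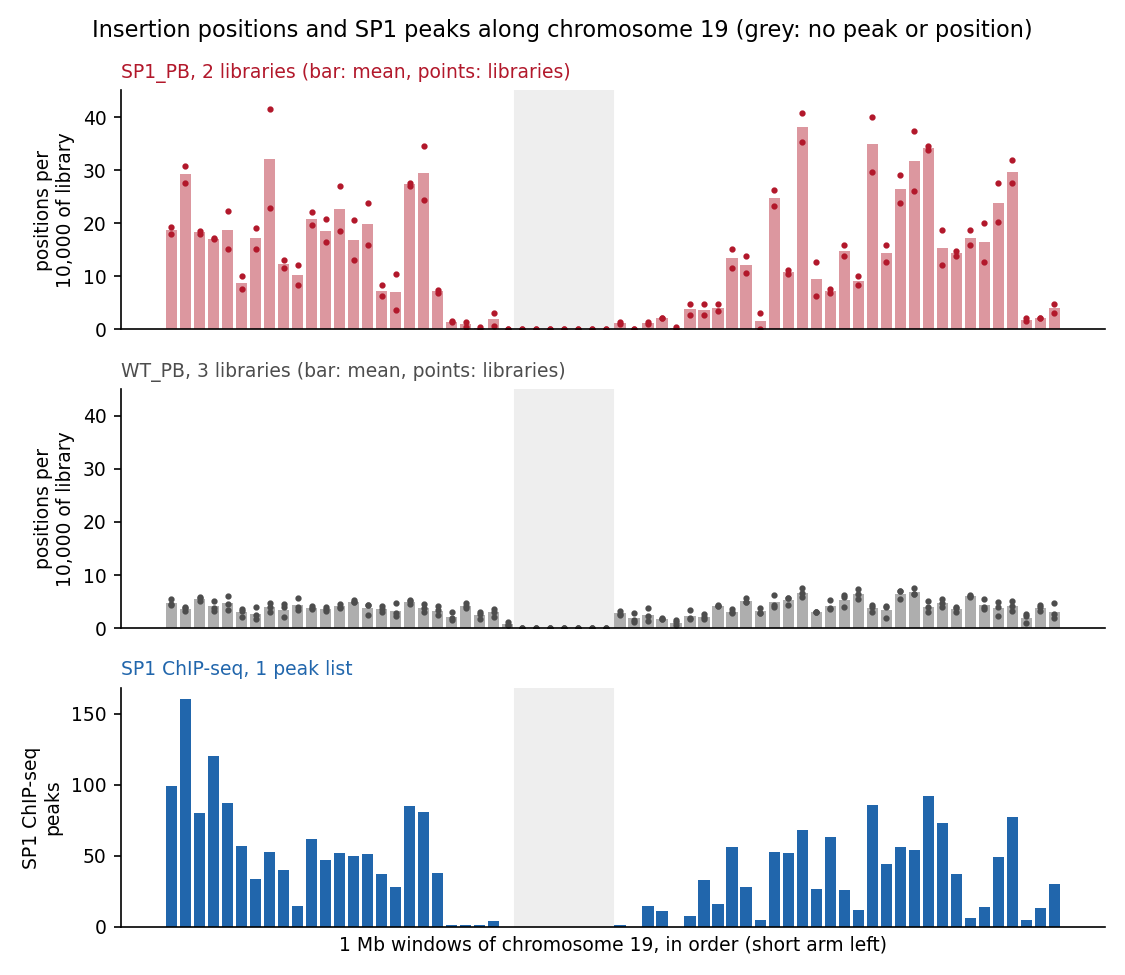
Insertion positions per 10000 positions of the library in each 1 Mb window of chromosome 19 for SP1_PB (top, 2 libraries) and WT_PB (middle, 3 libraries), and the number of SP1 peaks in the same windows (bottom). Bars in the upper panels are group means, points are libraries, and the grey band has no peak or position. SP1_PB follows the peaks in many windows, from 0 to over 38 per 10000, while WT_PB stays under 8 per 10000 in every library.

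Within chromosome 19, SP1_PB positions lay closer to SP1 peaks. Inside a peak were 29.8% and 30.2% of the chromosome's positions in SP1_PB, against 5.92%, 5.89% and 5.21% in WT_PB. The mean was 30.0% ± 0.245 (SD, n = 2) in SP1_PB and 5.67% ± 0.402 (SD, n = 3) in WT_PB. Outside a peak but within 1000 bp were 28.0% and 24.6% in SP1_PB, against 12.1%, 10.7% and 11.6% in WT_PB. In both of these classes every SP1_PB library was above every WT_PB library. The band over 1 to 5 kb from a peak held 16.5% and 20.4% in SP1_PB and 19.2%, 20.1% and 16.7% in WT_PB, values that overlapped (exact two-sided permutation p = 0.9). Farther out the order turned. The band over 5 to 20 kb held 15.9% and 16.0% in SP1_PB, against 26.5%, 25.7% and 27.8% in WT_PB. The class over 20 kb held 9.78% and 8.77% of the chromosome's positions in SP1_PB, against 36.3%, 37.6% and 38.7% in WT_PB. It covered 46.0% of the length of the windows of 1 Mb that held any position.

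Set against each library's total rather than against chromosome 19 alone, every class up to 20 kb was higher in SP1_PB. Inside peaks the log2 ratio was 4.25 ± 0.0866 (SE), an 18.99-fold difference (edgeR's quasi-likelihood test, adjusted p = 1.41e-10), where 95.8% of chromosomes were called higher. At 1 to 1000 bp the ratio was 8.31-fold (edgeR, adjusted p = 9.86e-10, also 95.8% of chromosomes called higher). Between 1 and 5 kb it was 3.53-fold (edgeR, adjusted p = 2.31e-07, 66.7% of chromosomes called higher). Between 5 and 20 kb it was 2.15-fold (edgeR, adjusted p = 7.21e-07), and there 12.5% of chromosomes were called higher. Over 20 kb the log2 ratio was -0.17 ± 0.0853 and missed the threshold (edgeR, adjusted p = 0.114), while the other 23 chromosomes were all called lower, 95.8% of those tested. These sizes depended on the scaling. With trimmed-mean (TMM) scaling, which moved the median over all 120 classes and chromosomes to -0.14 from 0.60, the log2 ratios were 3.50 inside, 2.31, 1.07 and 0.36 in the next classes, and -0.91 over 20 kb, where chromosome 19 was then called lower (adjusted p = 5.45e-06). With only the higher-scoring peaks kept, the class over 20 kb turned to 0.42 and was called higher (edgeR, adjusted p = 1.37e-04). Positions near the dropped peaks then count as distant, and how far this set the change was not tested.

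**Figure D2:**
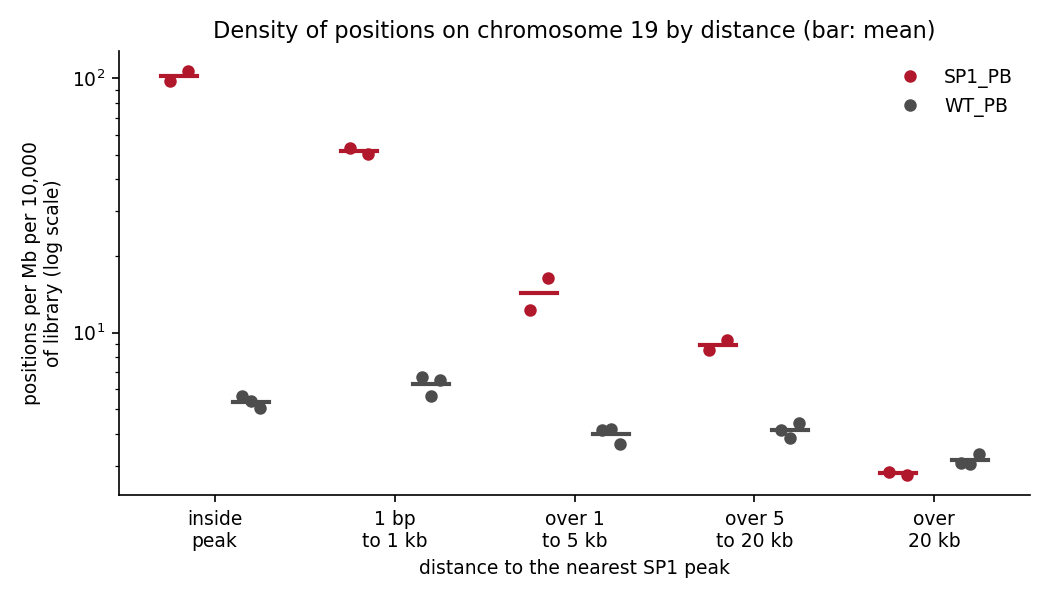
Density of insertion positions on chromosome 19, per Mb and per 10000 positions of the library (log axis), in 5 classes of distance to the nearest SP1 peak, SP1_PB left of WT_PB in each class. Points are libraries and bars are means. The SP1_PB mean declines over the classes, 102 inside peaks and 2.80 over 20 kb, while WT_PB means stay between 3.14 and 6.26.

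The same counts per length show the gradient directly. Inside peaks SP1_PB had 102 ± 6.41 positions per Mb per 10000 library positions (SD, n = 2) and WT_PB had 5.35 ± 0.306 (SD, n = 3). In the first 1000 bp outside peaks the densities were 51.8 ± 1.91 in SP1_PB and 6.26 ± 0.551 in WT_PB. Between 1 and 5 kb SP1_PB had 14.3 and WT_PB 3.99, and between 5 and 20 kb SP1_PB had 8.92 and WT_PB 4.13. Beyond 20 kb they were 2.80 ± 0.0638 in SP1_PB and 3.14 ± 0.151 in WT_PB. WT_PB was thus densest just outside peaks, and its own highest and lowest classes were much closer together than those of SP1_PB. The number of TTAA sites in each class was not counted, since no hg18 genome was used.

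Around the peaks themselves the SP1_PB positions formed a broad rise about 2 kb across. In the 200 bp just before the centre, in the direction of the coordinates, SP1_PB had 40.8 and 47.7 positions per 10000, against 2.04, 1.19 and 2.79 in WT_PB. In the 200 bp just after it SP1_PB had 32.4 and 36.6 positions per 10000, against 1.19, 2.67 and 2.44 in WT_PB. In the next 200 bp the values were 52.0 and 43.5 in SP1_PB and 2.55, 2.37 and 2.44 in WT_PB. Every SP1_PB value was above every WT_PB value in these bins, and the SP1_PB bins held 53 to 98 positions each, so differences between them are not read here. At 1800 to 2000 bp on the same side SP1_PB was at 5.30 and 5.53 per 10000, while WT_PB was at 0.850, 0.742 and 1.92. Of the positions inside a peak, the median distance from its centre was 295 and 283 bp in SP1_PB, against 346, 311 and 210 bp in WT_PB.

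**Figure D3:**
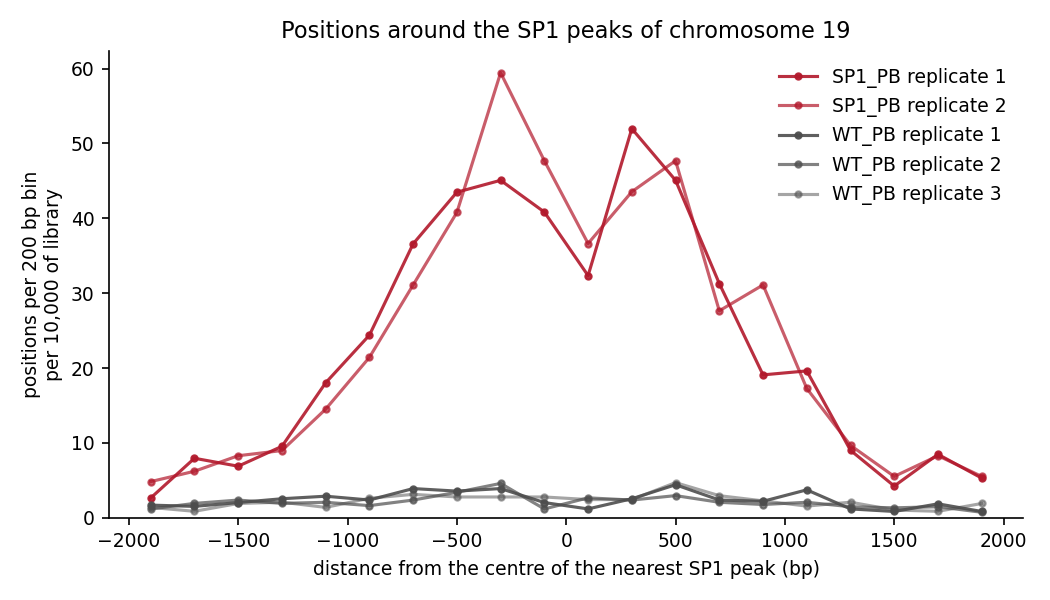
Insertion positions per 200 bp bin around the centre of the nearest chromosome 19 peak, per 10000 positions of the library. Lines are single libraries, 2 of SP1_PB (red) and 3 of WT_PB (grey). The SP1_PB lines reach 52.0 and 59.4 within 400 bp of the centre, and no WT_PB bin is above 4.70.

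Chromosome 19 had the highest log2 ratio of SP1_PB over WT_PB of all 24 chromosomes in each of the 5 classes. Inside peaks it was 4.25, with the other 23 between 2.75 and 4.19. At 1 to 1000 bp it was 3.05, with the others between 0.76 and 2.61. Between 1 and 5 kb it was 1.82, with the others between 0.08 and 1.14. Between 5 and 20 kb it was 1.11, with the others between -0.93 and 0.44. Over 20 kb it was -0.17 ± 0.0853 (SE), with the others between -1.62 and -0.35. The next chromosome, X inside peaks at 4.19 ± 0.428 and 22 over 20 kb at -0.35 ± 0.136, was near the error in these 2 classes. To test the difference itself, each library's positions of one distance class were taken as the denominator, a comparison added after the data had been seen. The chromosome's share of the genome's positions inside peaks was then 1.67-fold higher in SP1_PB than in WT_PB (edgeR, adjusted p = 4.69e-05, 4.17% of chromosomes called higher), a log2 value of 0.74 with chromosome X next at 0.73. The corresponding ratio was 2.57-fold at 1 to 1000 bp (edgeR, adjusted p = 5.39e-08, 8.33% of chromosomes called higher). It was 2.15-fold between 1 and 5 kb and 2.27-fold between 5 and 20 kb (12.5% called higher in each), and 1.91-fold over 20 kb (edgeR, adjusted p = 4.49e-06, 29.2% called higher). The share was therefore higher in all 5 classes, inside peaks and away from them.

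The distances within the outermost class were not equal. Positions over 20 kb from a peak were at a median distance of 43.1 and 41.5 kb on chromosome 19 in SP1_PB, against 60.7, 67.9 and 65.0 kb in WT_PB. On the other chromosomes these medians were 77.6 and 75.3 kb in SP1_PB and 113, 116 and 125 kb in WT_PB. Peaks were closer together on chromosome 19, and how far that set the ratio in this class was not tested.

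**Figure D4:**
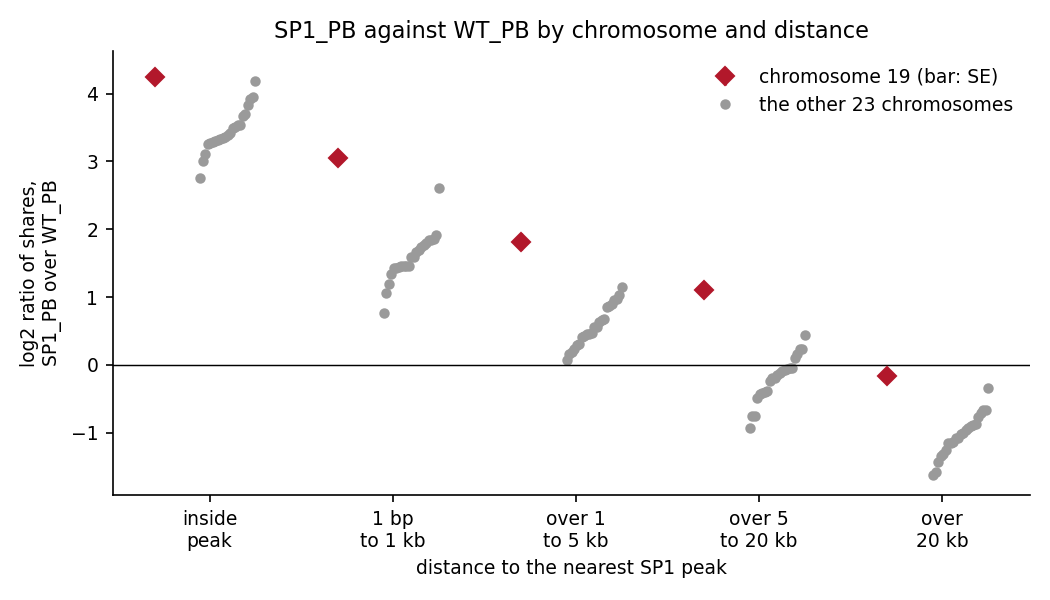
Log2 ratio of SP1_PB over WT_PB, each as a share of the library's positions, in 5 classes of distance to the nearest SP1 peak. Diamonds are chromosome 19 with the standard error, which is no larger than the symbol, and circles are the other 23 chromosomes. Chromosome 19 has the highest ratio in each class, 4.25 inside peaks and -0.17 over 20 kb.

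The preference for peaks over the rest of the same chromosome was nevertheless less widened by SP1 on chromosome 19 than elsewhere. The log2 odds of lying inside a peak on chromosome 19, minus the same odds on all other chromosomes, were 0.66 and 0.64 in SP1_PB, against 1.63, 1.78 and 1.59 in WT_PB. Positive values in all 5 libraries mean that positions on this peak-rich chromosome lay inside peaks more often with either transposase. The SP1_PB minus WT_PB difference was -1.02 ± 0.125 (SE, limma over 24 chromosomes, adjusted p = 8.33e-03, 12.5% of chromosomes called lower). The direction held without either SP1_PB library, at -1.03 without the first and -1.01 without the second, but the adjusted p was then 0.144 and 0.113. It was also lost without positions found in more than 1 library (-0.93, adjusted p = 0.0759). With positions inside or within 1 kb of a peak counted together, the difference was smaller, -0.36 (limma, adjusted p = 0.0338). A lower preference was not particular to chromosome 19. Inside peaks, chromosome 17 at -0.72 (limma, adjusted p = 0.0190) and chromosome 16 at -0.64 (limma, adjusted p = 0.0488) were also called lower. Their median gaps between peaks, 8.87 and 7.80 kb, were the shortest after that of chromosome 19.

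Along the chromosome, 57 of 64 windows of 1 Mb held the 10 positions needed for a test, and the other 7 held no position or peak. SP1_PB was called higher than WT_PB in 38 windows (edgeR, adjusted p under 0.05), where 11.0% of all windows in the genome were called higher. It was called lower in 3 windows, where 18.7% of all windows were called lower. The median log2 ratio was 1.66 over the chromosome 19 windows and -0.71 over all 2892 windows tested, or -0.53 with windows that SP1_PB left empty set at the bound that 3 positions allow. TMM scaling moved both medians, to 1.88 and -0.48, and DESeq2's size factors gave 1.83 and -0.57. The 38 higher windows held 2174 of the 2393 peaks, 90.8%, and the 3 lower windows held 2. The first 20 windows of the chromosome were all called higher, as were the 11 windows between 50 and 61 Mb. In 37 of the 38 both SP1_PB libraries were above all WT_PB libraries, which the call itself makes likely. Over all 57 tested windows this held in 40, and both were below all WT_PB libraries in 6. The share over the windows of the genome was not counted, so the 40 and the 6 are not read as a result. The exception among the 38 was the window at 16 to 17 Mb. It had 3.71 and 10.4 positions per 10000 in SP1_PB, against 4.76, 2.37 and 2.79 in WT_PB.

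The window with the smallest p was at 50 to 51 Mb and held 86 peaks. It had 29.7 and 40.1 positions per 10000 in SP1_PB, against 4.42, 2.97 and 4.01 in WT_PB. The ratio was 9.09-fold (log2 3.18 ± 0.260, edgeR, adjusted p = 1.04e-30). Most of this window's SP1_PB positions were not inside peaks: 15 were inside, 45 within 1 kb and 54 farther, of the 2 libraries together.

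The window at 54 to 55 Mb was built differently. It held 92 peaks and had 34.5 and 33.9 positions per 10000 in SP1_PB, against 3.91, 2.97 and 5.05 in WT_PB, an 8.64-fold ratio (edgeR, adjusted p = 7.38e-30). Here 66 SP1_PB positions lay inside peaks, 25 within 1 kb and 23 farther. The window at 7 to 8 Mb, with 53 peaks, had 22.8 and 41.5 per 10000 in SP1_PB, against 4.08, 3.11 and 4.70 in WT_PB. Its 2 SP1_PB libraries differed more from each other than those of the other windows named here, and its ratio was 7.93-fold (edgeR, adjusted p = 1.25e-26), with a log2 value of 2.53 to 3.39 when single libraries were left out.

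The window with the most peaks, 160, was at 1 to 2 Mb. It had 30.8 and 27.6 positions per 10000 in SP1_PB, against 3.74, 3.26 and 4.01 in WT_PB, a 7.98-fold ratio (edgeR, adjusted p = 4.83e-26). The 120 peaks of the window at 3 to 4 Mb went with fewer insertions, 17.0 and 17.3 per 10000 in SP1_PB, against 5.10, 3.86 and 3.31 in WT_PB. That ratio was 4.17-fold. The windows at 0 to 1 Mb, with 99 peaks, and at 4 to 5 Mb, with 87, had ratios of 3.83-fold and 4.09-fold. The remaining windows among the 10 with the smallest p, at 18, 60, 45, 59, 17 and 53 Mb, had 49 to 85 peaks and ratios between 4.53-fold and 7.59-fold. Among these the highest SP1_PB level was at 45 to 46 Mb, with 40.8 and 35.3 per 10000 in SP1_PB, against 5.95, 7.56 and 6.62 in WT_PB, which was also among the highest WT_PB levels.

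The 3 windows called lower had next to no peaks and lay on either side of the empty stretch. At 21 to 22 Mb, with 1 peak, SP1_PB had 1 and 2 positions, against 25, 26 and 27 in WT_PB. The ratio of pooled shares was 0.212 (exact 95% interval for counting error 0.0428 to 0.643). At 22 to 23 Mb, also with 1 peak, SP1_PB had 1 and 0 positions, against 18, 12 and 15 in WT_PB, a ratio of 0.122 (0.00303 to 0.718). At 33 to 34 Mb, with no peak, SP1_PB had 0 positions in both libraries, against 7, 11 and 16 in WT_PB, at least 2.06-fold lower by the limit that 3 positions over the group allow. These calls rested on few SP1_PB positions. Without the first SP1_PB library none of the 3 remained and 1 other window was called lower, without the second only the window at 21 to 22 Mb remained, and DESeq2 called none, which gave 40 of the 57 windows an unadjusted p under 0.05 in either direction. The other tested windows without a peak were at 24 to 25 Mb, with 0 positions in SP1_PB and 14 in WT_PB, and at 36 to 37 Mb, with 1 in SP1_PB and 20 in WT_PB. Neither passed the test.

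Over the windows ordered by their number of peaks, the SP1_PB excess grew at each step. The 15 windows with 0 to 13 peaks together held 0.472% and 0.408% of library positions in SP1_PB, against 0.421%, 0.439% and 0.463% in WT_PB, a ratio of 0.997. Their median log2 ratio was lower, -0.83. The window at 57 to 58 Mb, described below, held 30 of the 89 and 27 of the 59 SP1_PB positions of this group. In WT_PB it held 37 of 248, 41 of 296 and 34 of 266. The ratio of the group without this window was not worked out. The 14 windows with 14 to 38 peaks held 1.25% and 1.33% in SP1_PB, against 0.530%, 0.484% and 0.512% in WT_PB, a ratio of 2.54. The 14 windows with 40 to 57 peaks held 2.53% and 3.01% in SP1_PB, against 0.630%, 0.598% and 0.596% in WT_PB, a ratio of 4.55. The 14 windows with 62 to 160 peaks held 3.34% and 3.45% in SP1_PB, against 0.627%, 0.596% and 0.669% in WT_PB, a ratio of 5.38. The counts called higher in these 4 steps were 1, 10, 14 and 13. Across the 57 windows the number of peaks and the log2 ratio had Pearson's r = 0.682 and Spearman's rho = 0.816, a description of windows that share the same 5 libraries. Windows without an SP1_PB position entered at their fitted log2 value, as low as -6.03, and not at the bound that 3 positions allow. Peaks and the SP1_PB level had r = 0.743, and peaks and the WT_PB level had r = 0.387.

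**Figure D5:**
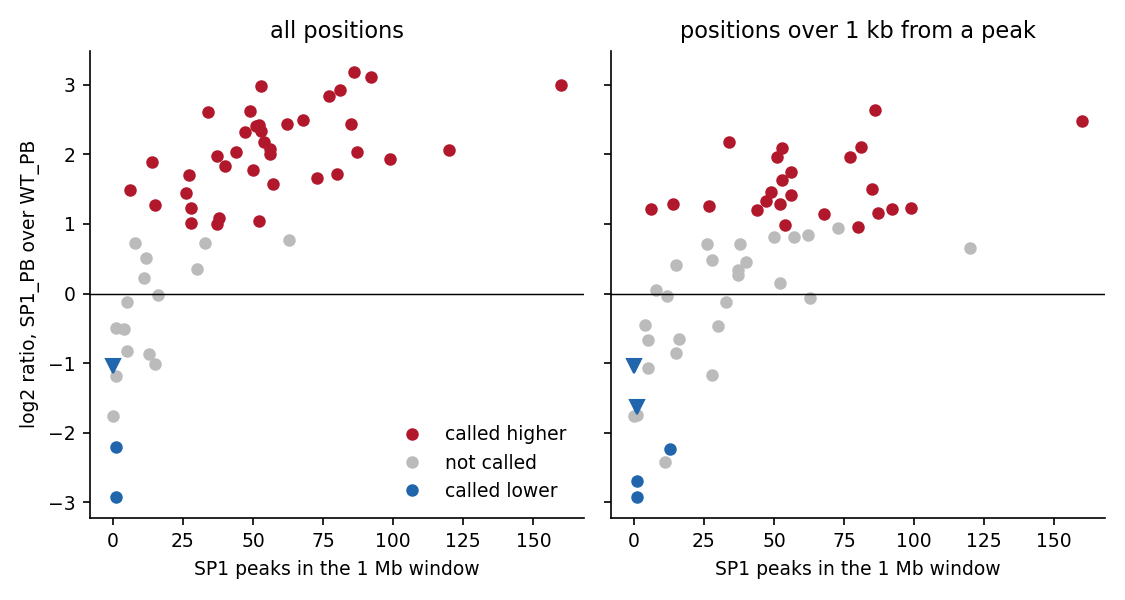
Log2 ratio of SP1_PB over WT_PB in each tested 1 Mb window of chromosome 19 against the number of SP1 peaks in it, for all positions (left) and for positions over 1 kb from a peak (right). Colours give the edgeR call. Triangles are windows without an SP1_PB position, drawn at the bound that 3 positions allow; 1 such window, with 14 WT_PB positions, has no bound and is left out of both panels. The 3 windows called lower on the left have 0 or 1 peak, and the window with 160 peaks is among the highest in both panels.

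A pair of windows departed from this order and were picked after their values had been seen. The window at 57 to 58 Mb held only 6 peaks and was called higher, with 15.9 and 18.7 positions per 10000 in SP1_PB, against 6.29, 6.08 and 5.92 in WT_PB (2.80-fold, edgeR, adjusted p = 4.35e-06). Of its 57 SP1_PB positions, 45 lay over 1 kb from any listed peak, and this far part was called higher as well (log2 1.21, edgeR, adjusted p = 1.06e-03). The window at 47 to 48 Mb held 63 peaks and was not called, with 6.89 and 7.60 per 10000 in SP1_PB, against 3.57, 3.86 and 5.22 in WT_PB (log2 0.78 ± 0.375, edgeR, adjusted p = 0.0959).

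Each window was then split into the part inside peaks, the flanks within 1 kb and the part farther than 1 kb. Inside peaks 33 of 33 tested windows were called higher, where 93.5% of all such parts in the genome were. In the flanks 34 of 39 were called higher, where 43.7% were, and none lower, where 0.297% were; 34 flanks had an unadjusted p under 0.05 by edgeR, and 34 by DESeq2. Of these parts, 5 of 33 inside peaks and 23 of 39 flanks would have reached the 10 positions needed through WT_PB alone, so the counts say little by themselves, and without the first SP1_PB library they were 21 of 23 and 21 of 32. The far part does not have this limit, since WT_PB alone reached the minimum in all 57. There 24 of 57 windows were called higher, where 4.01% of all far parts were, and 5 were called lower, where 29.1% were. The median log2 ratio of the far parts was 0.72 on chromosome 19 and -1.16 over the genome. All 24 lay in windows that were called higher as a whole, though the whole window includes its far part, so this is not a separate result.

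The far part with the smallest p was again at 50 to 51 Mb, with 54 positions in SP1_PB and 48 in WT_PB although the WT_PB libraries were larger, a log2 ratio of 2.63 ± 0.336 (edgeR, adjusted p = 8.09e-13), which was 2.01 without the second SP1_PB library. The far parts at 7 to 8 Mb (log2 2.10), 1 to 2 Mb (2.48), 6 to 7 Mb (2.18) and 18 to 19 Mb (2.10) followed. The window at 6 to 7 Mb had 34 peaks, and 39 of its 58 SP1_PB positions lay over 1 kb from a peak. The far part of the window at 3 to 4 Mb, with its 120 peaks, had 16 positions in SP1_PB and 56 in WT_PB, and was not called (log2 0.65, edgeR, adjusted p = 0.233). Across the 57 windows the number of peaks and the log2 ratio of the far part had Pearson's r = 0.643 and Spearman's rho = 0.731. Far parts without an SP1_PB position again entered at their fitted value, as low as -6.61.

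Few of the peaks were marked by an insertion at this depth. Of the 2393 peaks, 554 had an SP1_PB position inside or within 1 kb in either library and 1839 had none. In single libraries 433 and 371 peaks were marked in SP1_PB, 18.1% and 15.5%, against 192, 200 and 182 peaks in WT_PB, 8.02%, 8.36% and 7.61%, although the WT_PB libraries held more positions. SP1_PB positions were concentrated: of 1478 within 1 kb of a peak, summed over the 2 libraries, 50% lay at 118 peaks, 4.93% of all. On the same count 225 peaks had exactly 1 position and 83 had 5 or more. The sum counts 281 positions found in both libraries once in each, and positions within 3 bp of each other separately, which raises these counts. The concentration of WT_PB positions was not worked out.

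Peaks with a higher score were marked more often. The peaks were put in score order into 4 groups of 598 or 599. In the first SP1_PB library the share of peaks marked was 9.68% in the lowest group, then 13.7% and 19.2%, and 29.8% in the highest. In the second it was 7.68% in the lowest group and 24.1% in the highest. WT_PB showed a shallower slope of the same sign, with 4.84%, 4.84% and 5.84% in the lowest group and 12.04%, 12.5% and 11.2% in the highest. The SP1_PB over WT_PB ratio of positions was 8.55 in the lowest group, 11.8 and 12.7 in the middle and 12.7 in the highest. Higher-scoring peaks were also wider, with median widths of 618 bp in the lowest and 1106 bp in the highest group, and score and width were not separated.

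Single peaks at the top of the SP1_PB counts were mostly not those with the top scores. They were picked by these counts, so high ratios over WT_PB follow in part from the choice and are no test. The bounds and the interval given below count every position as separate, including those within 3 bp or found in both libraries. The peak at chr19:45801223-45802249, in place 52 by score, had 10 and 7 SP1_PB positions inside or within 1 kb, against 0 in each WT_PB library. This was at least 31.2-fold higher by the limit that 3 positions over the group allow. Its 17 positions came down to 7 sites once positions within 3 bp were merged over both libraries, and 5 of them were found in both. The peak at chr19:59174622-59175642, in place 880 by score, had 7 and 9 in SP1_PB against 0 in each WT_PB library, at least 29.4-fold higher. Only 3 of its 16 positions were inside the peak. The peak at chr19:10842188-10843387 had 6 and 8 in SP1_PB against 0, 1 and 1 in WT_PB, all 14 inside the peak but at only 3 sites after merging. Its pooled ratio was 38.6 (exact 95% interval for counting error 8.86 to 350). The next 7 peaks, at 7890929, 7020008, 53515004, 45810746, 60679361, 17527014 and 4422888, had 11 to 14 SP1_PB positions and at most 2 in WT_PB.

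The 5 peaks with the highest scores had no SP1_PB position inside or within 1 kb. The same was true of 62.7% of peaks in the highest score group and 76.8% of all peaks, so these 5 say little by themselves. The highest of all, chr19:21220-22695, had 0 and 0 in SP1_PB against 2, 1 and 1 in WT_PB. The peak in place 3, chr19:17548014-17549306, had none in any library, though the peak at 17527014, about 20 kb away, had 7 and 4 in SP1_PB and none in WT_PB. Likewise the peak in place 5, chr19:45807107-45808536, had none, and it lies between the peaks at 45801223 and 45810746, both among the 10 with the most SP1_PB positions. Whether these peaks hold a TTAA was not tested. The widest peak, chr19:1183812-1190057, had 1 and 0 positions in SP1_PB and none in WT_PB.

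Of the 125 peaks with at least 5 positions over the libraries, 98 were called higher in SP1_PB (edgeR, adjusted p under 0.05), where 47.1% of all such peaks were. Only 10 of the 125 would have reached this minimum through WT_PB alone, so the count does not support a difference. It also rested on the denominator: with TMM scaling, which moved the median log2 ratio over all 1797 peaks tested to 0.65 from 2.75, no peak was called, though 56 on chromosome 19 had an unadjusted p under 0.05. DESeq2 called none either, with 19 at an unadjusted p under 0.05. Without the first SP1_PB library 22 of 47 were called, and without the second 38 of 71.

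Positions on chromosome 19 recurred between the 2 SP1_PB libraries more than those elsewhere. The 2 SP1_PB libraries shared 390 positions there, 27.3% of the first and 32.9% of the second, against 2523 on the other chromosomes, 14.5% of the first and 18.997% of the second. Any pair of WT_PB libraries shared 48 to 77 chromosome 19 positions, at most 5.92% of either. The WT_PB pairs also shared more on chromosome 19 than elsewhere, as a percentage of the smaller library's positions there. The values were 5.92% against 4.18%, 3.73% against 2.96% and 4.20% against 3.08%. Between an SP1_PB and a WT_PB library the order depended on the denominator. As a percentage of SP1_PB positions, sharing was lower on chromosome 19 than elsewhere in every pair, 4.96% against 5.92% for the first libraries. As a percentage of WT_PB positions it was higher in every pair, 5.46% against 1.79% for the same libraries. Of the 390 shared positions, 281 lay inside or within 1 kb of a peak. Merging positions within 3 bp removed 17.4% and 20.6% of the SP1_PB positions on chromosome 19, against 4.23%, 5.54% and 7.93% of the WT_PB positions there. Over the whole genome the same merging took SP1_PB from 18856 to 16566 and from 14467 to 12150 positions. The median number of reads per chromosome 19 position was 7 and 16 in SP1_PB, against 3, 4 and 3 in WT_PB. On the other chromosomes the medians were 6 and 13 in SP1_PB, against 3, 4 and 3 in WT_PB. Whether a shared position marks separate insertions or 1 insertion found in both libraries was not tested. Without every position found in more than 1 library, the log2 ratio inside peaks was 4.46, and it was 3.82 with 1 position kept per cluster chained within 1 kb.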

How the data were processed

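Insertions were read from 5 deposited tables that give chromosome, position and a count of reads, aligned to hg18 with Bowtie 0.12.7, per the submitters' processing notes; hg18 and the columns are given in the text deposited with them. SP1 peaks carry the score of the authors' peak caller (MACS, version not given in the sources used here), and the RNA table holds the authors' deposited RPKM values (TopHat and Cufflinks 1.1.0, per the submitters' processing notes). Chromosome codes 23 and 24 were read as X and Y. Lines at 1 position were merged whatever their reads. Peaks were set to 1-based coordinates, and a position's distance to its nearest peak gave 5 classes. Counts of positions per chromosome, class, 1 Mb window (at least 10 positions) and peak (at least 5) were tested over the whole genome with edgeR 4.0.16's quasi-likelihood test, library totals as denominators and Benjamini-Hochberg adjustment. Peak preference was tested with limma 3.58.1 on log2 odds (0.5 added). DESeq2 1.42.0 was an alternative. Named windows are those with the smallest p (10 higher, up to 5 lower, 5 far), the most peaks (5) or none; named peaks have the most SP1_PB positions (10), the highest score (5) or the greatest width. The members, lists and tests were chosen with earlier results of these data known.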

Additional observations from a re-analysis of the deposited data

How the results depend on the processing

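Of 145 recomputed test values of the main comparisons 139 kept direction and side of the threshold, and of 103 recomputed counts of calls 78 stayed within 1.5 times the count reported. Of 440 values for single windows and peaks 403 kept both, and the other 37 kept direction but missed the threshold. Over 20 kb from a peak, the log2 ratio of -0.17 became -0.91 with TMM scaling and -0.79 with DESeq2, both called lower, and 0.42 with the stricter peak list, where the class takes in positions near dropped peaks. Peak preference, -1.02, ranged between -1.06 and -0.96 without single libraries, lost its call without either SP1_PB library, was -0.36 with the 1 kb around peaks included, and was -0.93 without positions found in more than 1 library. The 38 higher windows ranged between 32 and 39 over all settings. The 3 lower windows became 0 with DESeq2, 5 with windows shifted by 500 kb, 1 with 1 position per 1 kb cluster, and 1 to 3 without single libraries, the 1 without the first SP1_PB library being none of the 3. Far parts called lower, 5, became 1 with DESeq2, 8 with shifted windows, 3 with 1 kb clusters, 3 without positions in more than 1 library, and 3 to 5 without single libraries. Without single libraries, higher inside parts numbered 21 to 32 and higher flanks 21 to 33. The 98 peaks called higher became 0 with TMM scaling, 0 with DESeq2, 151 of 770 without the filter, 48 of 51 inside peaks only, 56 of 76 with positions within 3 bp merged, 0 of 16 with 1 kb clusters, 18 of 35 without positions in more than 1 library, and 22 to 95 without single libraries. The cause of these changes was not tested beyond the fewer peaks tested. Deviations of same-numbered libraries from their group means correlated at 0.00897 for the first and -0.0031 for the second over 2892 windows. With 2 SP1_PB libraries these deviations mirror each other, so the values are not separate checks. They cannot tell whether same-numbered libraries were made together. A fit with the replicate number as a block, which leaves out the third WT_PB library, called 1 window lower, 1 far part lower and 49 of 111 peaks higher. DESeq2 was not run for peak preference, which is no count. At this depth 1839 of 2393 peaks had no SP1_PB position, and libraries were not thinned to test how far depth sets that.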
